A study of Mus musculus with 6 samples.

Results

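The mitosis genes described here are 44 genes of chromosome segregation and cell division, taken as a list of symbols, of which 43 were measured among 19938 genes. Each was read from the probe set with exactly 1 gene symbol in the platform annotation and the highest mean over the arrays, and Ccnb1, which had no such probe set, was not analysed here. RNA of sorted CD8+ T cells with low surface CD44 was hybridised to 6 Affymetrix mouse arrays, 3 from sanroque mice and 3 from wild-type mice. Sanroque mice were Roquinsan/san, homozygous for a point mutation of the RNA-binding protein Roquin that is present in all their cells, and wild-type mice were Roquin+/+. Both genotypes were on the C57BL/6 background and 10 weeks old, the cells came from spleen and lymph nodes, and the labels call the samples of a genotype biological replicates.

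Dividing cells switch on a shared set of genes late in the cycle. Cyclin-dependent kinase 1 with cyclins A and B starts mitosis, Polo and Aurora kinases build the spindle, kinetochores hold the chromosomes, and the spindle checkpoint restrains the anaphase-promoting complex until every chromosome is attached. In resting cells the DREAM complex represses many of these genes through an element called the CHR, usually spelled TTTGAA, and NF-Y binds CCAAT boxes beside it. When cells enter the cycle, B-MYB and FOXM1 join the MuvB core of the complex and the genes are transcribed. A naive CD8+ T cell rests outside the cycle, so these transcripts are usually low in it.

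Promoter sequence is shown because it is the best known feature that genes of this kind share. The RefSeq table for build GRCm38.p6 held a window from 250 bases before to 50 bases after the gene start for 36 of the 43 measured genes. A gene was counted once, if any of its listed windows held the motif. TTTGAA, searched on both strands, was in the window of 29 of the 36 genes, or 80.6%, against 20.2% of all 27025 genes with such a window. CCAAT, also on both strands, was in 25 of the 36, or 69.4%, against 41.1% of all, and both motifs were in 22, or 61.1%, against 7.97%. TTTGAA lay within 50 bases of the start in 27 of the 36 genes, against 5.72% of all. No promoter entry was listed for Ccna2, Foxm1, Pbk, Aurkb, Kif20a, Tpx2 and Dlgap5. A match is a run of letters and not a measured binding site.

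The windows below run from 160 bases before to 30 bases after the listed start, 5′ to 3′ on the gene's strand, with TTTGAA and CCAAT of either strand in capitals (TTCAAA and ATTGG on the other strand). Shown first are the 4 genes with the largest folds among those with a window. Mki67 lies on chr7:135716350-135716539, minus strand, Top2a on chr11:99024160-99024349, minus strand, Ccnb2 on chr9:70421525-70421714, minus strand, and Kif11 on chr19:37376222-37376411, plus strand. The 4 genes with log2 folds under 0.2 follow. Racgap1 lies on chr15:99651627-99651816, Kif23 on chr9:61946770-61946959, Ndc80 on chr17:71526828-71527017 and Cdc20 on chr4:118437314-118437503, all on the minus strand.
Mki67: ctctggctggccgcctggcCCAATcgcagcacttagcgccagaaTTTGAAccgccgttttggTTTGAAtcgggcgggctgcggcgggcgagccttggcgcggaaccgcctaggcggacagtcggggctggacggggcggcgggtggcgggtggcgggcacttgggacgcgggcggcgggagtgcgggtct
Top2a: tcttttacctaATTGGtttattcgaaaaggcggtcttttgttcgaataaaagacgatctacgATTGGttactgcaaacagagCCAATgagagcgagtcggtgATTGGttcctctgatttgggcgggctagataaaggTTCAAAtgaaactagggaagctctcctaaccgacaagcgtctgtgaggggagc
Ccnb2: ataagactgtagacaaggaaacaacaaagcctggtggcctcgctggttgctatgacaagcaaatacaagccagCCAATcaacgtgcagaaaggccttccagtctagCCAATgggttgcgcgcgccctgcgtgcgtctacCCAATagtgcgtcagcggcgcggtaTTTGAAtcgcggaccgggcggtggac
Kif11: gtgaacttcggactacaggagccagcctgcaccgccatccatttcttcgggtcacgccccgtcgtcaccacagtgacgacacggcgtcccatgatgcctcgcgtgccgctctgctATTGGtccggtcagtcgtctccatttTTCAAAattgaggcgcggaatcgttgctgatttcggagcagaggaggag
Racgap1: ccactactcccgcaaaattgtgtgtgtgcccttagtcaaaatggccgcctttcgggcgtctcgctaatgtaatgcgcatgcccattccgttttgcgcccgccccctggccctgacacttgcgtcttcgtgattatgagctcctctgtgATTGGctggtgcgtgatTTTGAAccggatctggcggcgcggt
Kif23: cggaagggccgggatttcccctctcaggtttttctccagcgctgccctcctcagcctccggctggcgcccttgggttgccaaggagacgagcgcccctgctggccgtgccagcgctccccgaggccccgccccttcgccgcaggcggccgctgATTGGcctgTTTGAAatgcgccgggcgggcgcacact
Ndc80: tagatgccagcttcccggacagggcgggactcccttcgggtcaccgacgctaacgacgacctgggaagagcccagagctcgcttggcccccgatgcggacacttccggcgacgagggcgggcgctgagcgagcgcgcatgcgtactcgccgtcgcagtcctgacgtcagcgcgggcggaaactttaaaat
Cdc20: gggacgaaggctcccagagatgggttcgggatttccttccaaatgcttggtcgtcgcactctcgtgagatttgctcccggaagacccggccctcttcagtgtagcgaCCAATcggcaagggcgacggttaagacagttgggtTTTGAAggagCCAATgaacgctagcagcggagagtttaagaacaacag
Both motifs stand in 7 of these 8 windows, in genes with the largest and with the smallest folds. The Ndc80 window shows none, since its TTTGAA starts at base 30 after the start and runs past the end. Among the measured genes with a window, TTTGAA was present in 17 of the 22 that passed the test described next and in 12 of the 14 that did not.

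Most mitosis transcripts were higher in sanroque samples. Of the 43 genes, 27 rose, 0 fell and 16 did not pass, by limma's two-sided test, called below 0.05 after Benjamini-Hochberg adjustment across the 19938 genes. At an unadjusted p below 0.05, 0 were lower by limma. That is 62.8% of them higher, where 3.26% of all genes were called higher, 2.51% lower and 5.77% in either direction. The median log2 fold, sanroque minus wild type, was 0.52 for the mitosis genes and -0.03 for all genes. Mki67, Top2a and Ccna2 rose at least 4-fold, 12 genes at least 2-fold and 21 at least 1.5-fold, and the smallest fold that passed was 1.29, of Hmmr. These genes were chosen with earlier results of the same arrays in view, so the share describes them and is not independent evidence. Markers of myeloid, B and plasma cells rose on the same sanroque arrays, with the values given beside the marker lists, and their part in the result was not tested.

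The separation was also visible without a model. In 39 of the 43 genes all 3 sanroque arrays read above all 3 wild-type arrays, or 90.7%, where this held for 9.46% of all genes and the opposite order for 13.2%. The 4 genes whose groups overlapped were Cdk1, Birc5, Kif23 and Racgap1. Of the 16 genes that did not pass, 15 had a positive log2 fold, up to 0.47, where 38.5% of all genes had a positive one. In a whole sorted sample, more dividing cells and more of these RNAs per cell cannot be told apart.

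**Figure D1:**
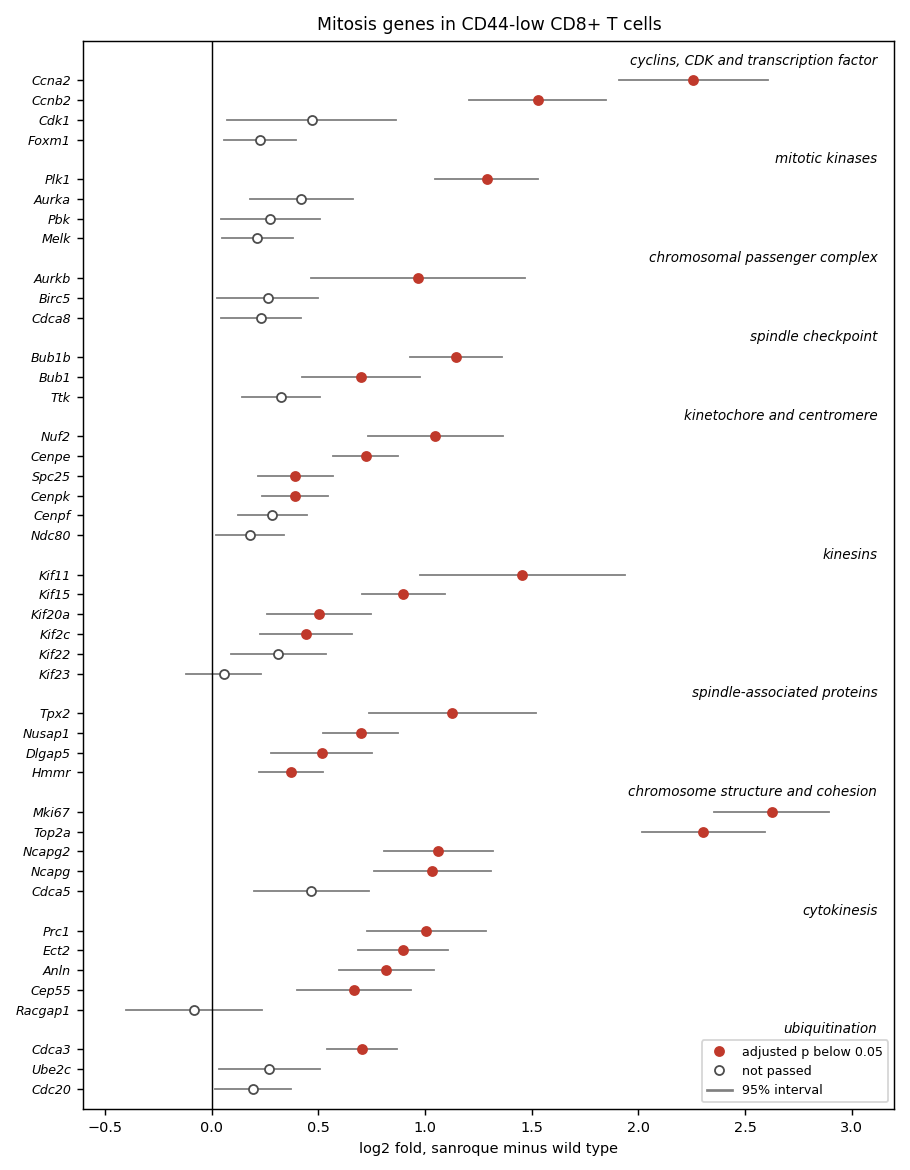
Log2 folds (sanroque minus wild type) of the 43 measured mitosis genes, grouped by role, with 95% intervals from limma's fit of 3 sanroque and 3 wild-type arrays. Filled points mark the 27 genes that passed and open points the 16 that did not, and Racgap1 alone lies below 0.

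The calls of 16 of the 27 genes held when each array was left out in turn. Anln, Bub1b, Ccna2, Ccnb2, Cdca3, Cenpe, Ect2, Kif15, Mki67, Ncapg, Ncapg2, Nuf2, Nusap1, Plk1, Prc1 and Top2a were the 16. Aurkb, Bub1, Cenpk, Cep55, Dlgap5, Hmmr, Kif11, Kif20a, Kif2c, Spc25 and Tpx2 lost their call without at least 1 array. With wild type replicate 1 left out 16 mitosis genes were higher, the lowest count of these 6 fits, and with sanroque replicate 3 left out 24 were, the highest. Calls over all genes changed as well. Without sanroque replicate 1, 22 mitosis genes and 455 of all genes were higher, against 27 and 650 in the main fit.

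Genes of chromosome structure held the largest changes. Mki67, whose product coats mitotic chromosomes and is the common marker of cycling cells, read 8.14, 8.23 and 8.13 (log2 intensity) in sanroque replicates 1 to 3, against 5.46, 5.79 and 5.37 in wild-type replicates 1 to 3. Top2a, the DNA topoisomerase that untangles sister chromatids, read 7.74, 8.03 and 7.93 in sanroque and 5.53, 5.82 and 5.43 in wild type. Their gaps between genotypes exceeded the range within either genotype several times over. The folds were 6.17 for Mki67 (log2 fold 2.62 ± 0.11, SE, adjusted p = 0.000999) and 4.94 for Top2a (2.31 ± 0.12, adjusted p = 0.00104). Another Top2a probe set near the low end of the scale read 3.58, 3.55 and 3.59 in sanroque and 3.43, 3.52 and 3.44 in wild type, and the mean of both Top2a probe sets had a log2 fold of 1.21. Ncapg and Ncapg2, subunits of condensin I and condensin II, which compact chromosomes, rose by log2 folds of 1.04 ± 0.12 and 1.06 ± 0.11. Cdca5, which encodes sororin, a protector of sister chromatid cohesion, did not pass (0.47 ± 0.12, adjusted p = 0.0640), although its values of 5.02, 4.99 and 5.39 in sanroque lay above the 4.70, 4.62 and 4.67 in wild type.

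Of the 4 genes measured among mitotic cyclins, their kinase and their transcription factor, both cyclins rose. Ccna2, cyclin A2, read 7.44, 7.31 and 6.85 in sanroque and 4.87, 4.97 and 4.99 in wild type, a 4.78-fold difference (log2 fold 2.26 ± 0.15, adjusted p = 0.00169). Ccnb2, cyclin B2, read 7.10, 6.83 and 6.71 in sanroque and 5.24, 5.59 and 5.22 in wild type (1.53 ± 0.14, adjusted p = 0.0029). For both cyclins sanroque replicate 1 was highest and sanroque replicate 3 lowest, and the groups stood well apart. Cdk1, the kinase that these cyclins activate, did not pass and its groups overlapped. It read 5.32, 5.49 and 5.65 in sanroque and 5.01, 4.69 and 5.35 in wild type (0.47 ± 0.17, 95% interval 0.07 to 0.87, adjusted p = 0.179). Foxm1, the transcription factor of late cell cycle genes, differed by 0.23 ± 0.07 (adjusted p = 0.127, not passed), with values of 5.15 to 5.31 in sanroque above 4.96 to 5.06 in wild type.

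Of the kinases Plk1, Aurka, Pbk and Melk, 1 passed, which was Plk1. Plk1, the Polo kinase of mitotic entry and spindle assembly, read 7.26, 6.99 and 7.35 in sanroque and 5.87, 5.89 and 5.96 in wild type (log2 fold 1.29 ± 0.10, 2.44-fold, adjusted p = 0.00221). Aurka, the Aurora kinase of the spindle poles, read 6.90, 6.76 and 7.001 in sanroque and 6.56, 6.55 and 6.29 in wild type and did not pass (0.42 ± 0.10, adjusted p = 0.0619). The groups of Aurka did not overlap, but the nearest values were close together. Pbk and Melk, 2 less studied kinases of dividing cells, had log2 folds of 0.28 ± 0.10 and 0.21 ± 0.07 and did not pass.

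The chromosomal passenger complex corrects faulty spindle attachments and later guides cytokinesis. Aurkb, its kinase, read 6.92, 7.27 and 7.19 in sanroque and 5.73, 6.13 and 6.61 in wild type. The wild-type arrays were spread more widely for Aurkb than for any other mitosis gene (SD 0.44), and the log2 fold of 0.97 ± 0.21 passed narrowly (adjusted p = 0.0472). Aurkb kept its call in 1 of the 6 fits that left out an array. Birc5, survivin, read 4.99, 5.22 and 5.11 in sanroque and 4.73, 5.02 and 4.78 in wild type, with overlap (0.26 ± 0.10, adjusted p = 0.208). Cdca8, borealin, also missed the threshold (0.23 ± 0.08, adjusted p = 0.164).

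Of the 3 spindle checkpoint genes, 2 rose. Bub1b, whose product BUBR1 inhibits the anaphase-promoting complex, read 5.94, 6.17 and 6.18 in sanroque and 4.88, 4.93 and 5.04 in wild type (log2 fold 1.15 ± 0.09, 2.21-fold, adjusted p = 0.00221). Bub1, the checkpoint kinase at kinetochores, read 4.36, 4.72 and 4.81 in sanroque and 3.94, 3.91 and 3.95 in wild type (0.70 ± 0.12, adjusted p = 0.0212). Sanroque replicate 1 was the lowest of its group for both. Ttk, the kinase MPS1 that starts checkpoint signalling, narrowly missed the threshold (0.33 ± 0.08, adjusted p = 0.0577).

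Kinetochores link chromosomes to spindle microtubules, and 4 of their 6 genes rose. Nuf2, a subunit of the NDC80 complex that grips microtubules, read 5.82, 5.85 and 6.14 in sanroque and 4.64, 5.07 and 4.96 in wild type (log2 fold 1.05 ± 0.14, 2.07-fold, adjusted p = 0.00921). Cenpe, a kinesin of the kinetochore that moves chromosomes to the equator, read 5.06, 4.98 and 4.96 in sanroque and 4.27, 4.26 and 4.31 in wild type (0.72 ± 0.06, adjusted p = 0.00281). Genes of the NDC80 complex gave unequal estimates. Spc25 rose by a log2 fold of 0.39 ± 0.08, while Ndc80 itself read 6.44, 6.50 and 6.40 in sanroque and 6.25, 6.23 and 6.33 in wild type and did not pass (0.18 ± 0.07, 95% interval 0.02 to 0.34, adjusted p = 0.194). The difference between these subunits was not tested. Cenpk, of the inner kinetochore, rose by 0.39 ± 0.07, and Cenpf, of the outer corona, did not pass (0.29 ± 0.07, adjusted p = 0.0592).

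Of the 6 kinesin genes, 4 rose. Kif11, the motor that pushes spindle poles apart, read 5.32, 5.87 and 6.19 in sanroque and 4.22, 4.46 and 4.33 in wild type (log2 fold 1.46 ± 0.20, 2.74-fold, adjusted p = 0.0126). Its sanroque arrays were spread more widely than those of any other mitosis gene (SD 0.44), and replicate 1 was lowest. Kif15, which helps Kif11 hold the spindle bipolar, read 5.81, 5.71 and 5.62 in sanroque and 4.72, 4.91 and 4.80 in wild type (0.90 ± 0.08, adjusted p = 0.00307). Kif20a, a motor of cytokinesis, and Kif2c, which shortens microtubules at centromeres, rose by 0.51 ± 0.10 and 0.44 ± 0.09. Kif22, a motor that pushes chromosome arms, did not pass (0.31 ± 0.10, adjusted p = 0.116).

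Kif23 and Racgap1 were the 2 mitosis genes whose 95% intervals included 0. Their products form centralspindlin, which bundles microtubules between the separating chromosomes. Kif23 read 7.58, 7.51 and 7.52 in sanroque and 7.44, 7.59 and 7.41 in wild type (log2 fold 0.06 ± 0.07, 95% interval -0.12 to 0.23, adjusted p = 0.817). Racgap1 read 9.67, 9.97 and 9.68 in sanroque and 9.59, 9.99 and 9.99 in wild type (-0.08 ± 0.14, 95% interval -0.40 to 0.24, adjusted p = 0.868). The groups overlapped for both, and the promoter windows of both, printed above, hold TTTGAA and CCAAT next to the start.

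The other genes of cytokinesis rose, 4 of 4. Prc1, which cross-links microtubules of the central spindle, read 5.66, 5.86 and 5.69 in sanroque and 4.48, 4.85 and 4.85 in wild type (log2 fold 1.01 ± 0.12, 2.01-fold, adjusted p = 0.0064). Ect2, an exchange factor that acts at the cleavage furrow, read 6.75, 6.75 and 7.02 in sanroque and 5.96, 5.95 and 5.92 in wild type (0.90 ± 0.09, adjusted p = 0.00388). Ect2 was among the steadiest genes in wild type, with an SD of 0.02. Anln, the scaffold anillin of the contractile ring, and Cep55, a protein of the midbody, rose by 0.82 ± 0.10 and 0.67 ± 0.11.

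All 4 genes of spindle-associated proteins rose. Tpx2, an activator of Aurora A and a nucleator of spindle microtubules, read 6.12, 6.24 and 6.68 in sanroque and 5.40, 5.27 and 4.98 in wild type (log2 fold 1.13 ± 0.17, 2.19-fold, adjusted p = 0.0148). Nusap1, which bundles spindle microtubules, read 5.09, 4.91 and 5.03 in sanroque and 4.28, 4.28 and 4.38 in wild type (0.70 ± 0.07, adjusted p = 0.00473). Both genes had groups that did not overlap, with Tpx2 varying more among arrays of 1 genotype than Nusap1. Dlgap5 and Hmmr, further spindle assembly factors, rose by 0.52 ± 0.10 and 0.37 ± 0.06.

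Among the 3 genes of mitotic ubiquitination, Cdca3 rose. Cdca3, a trigger of mitotic entry that promotes degradation of the CDK-inhibiting kinase WEE1, read 5.98, 5.91 and 6.03 in sanroque and 5.24, 5.23 and 5.34 in wild type (log2 fold 0.71 ± 0.07, adjusted p = 0.00375). Ube2c, the ubiquitin-conjugating enzyme of the anaphase-promoting complex, read 6.73, 6.59 and 6.72 in sanroque and 6.46, 6.21 and 6.55 in wild type and did not pass (0.27 ± 0.10, 95% interval 0.03 to 0.51, adjusted p = 0.195). Cdc20, the activator of that complex and the target of the spindle checkpoint, read 6.71, 6.60 and 6.71 in sanroque and 6.48, 6.57 and 6.38 in wild type and did not pass (0.20 ± 0.08, 95% interval 0.02 to 0.37, adjusted p = 0.215). The sanroque values of Ube2c and Cdc20 lay above the wild-type values by small margins, while those of Cdca3 stood clear of them.

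**Figure D2:**
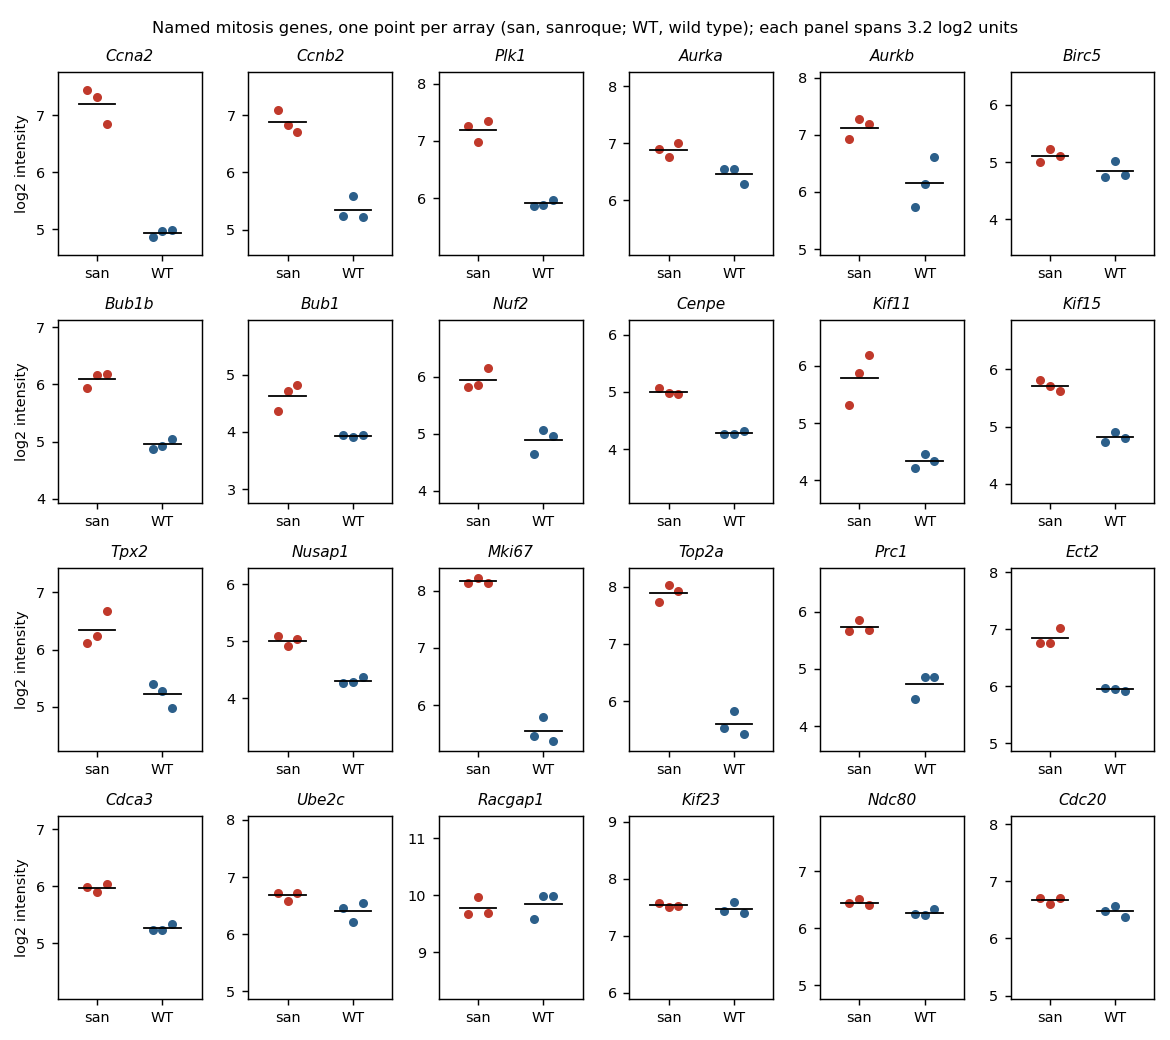
Log2 intensity on each array for 24 mitosis genes, 3 sanroque arrays at the left and 3 wild-type arrays at the right of each panel, with the group mean as a line and the same span of log2 units in every panel. Mki67, Top2a and Ccna2 show the widest gaps, and the points of Racgap1 and Kif23 overlap.

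Most mitosis probe sets were dim, which bears on the size of the folds. In wild type 34 of the 43 genes read below the median level of all genes (5.87), and in sanroque 24 read below the corresponding median (5.92). Background makes up part of a dim reading, so a fold that starts there can understate a change. Over all 6 arrays 29 genes had a mean below the median of all genes, of which 19 passed, with a median log2 fold of 0.51. Of the 14 brighter genes 8 passed, with a median log2 fold of 0.71. That split includes the sanroque arrays, so a gene can count as brighter through high sanroque values. Mki67, Top2a, Ccna2, Ccnb2 and Dlgap5 were among the brighter genes, with wild-type means of 5.54, 5.59, 4.94, 5.35 and 5.76, all below 5.87. The 2 medians therefore cannot show how the fold depends on the starting level.

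The sanroque arrays were not equal for every gene. Replicate 1 was the highest sanroque array for 15 mitosis genes and the lowest for 20, and replicate 3 was the highest for 18 and the lowest for 12. The median over the 43 genes of the array minus the wild-type mean was 0.43 for sanroque replicate 1, 0.59 for replicate 2 and 0.68 for replicate 3. Ccna2 and Ccnb2 were highest in replicate 1, whereas Kif11, Tpx2, Nuf2 and Cdca5 were highest in replicate 3. Each sanroque array therefore carried the difference, to an extent that varied by gene.

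**Figure D3:**
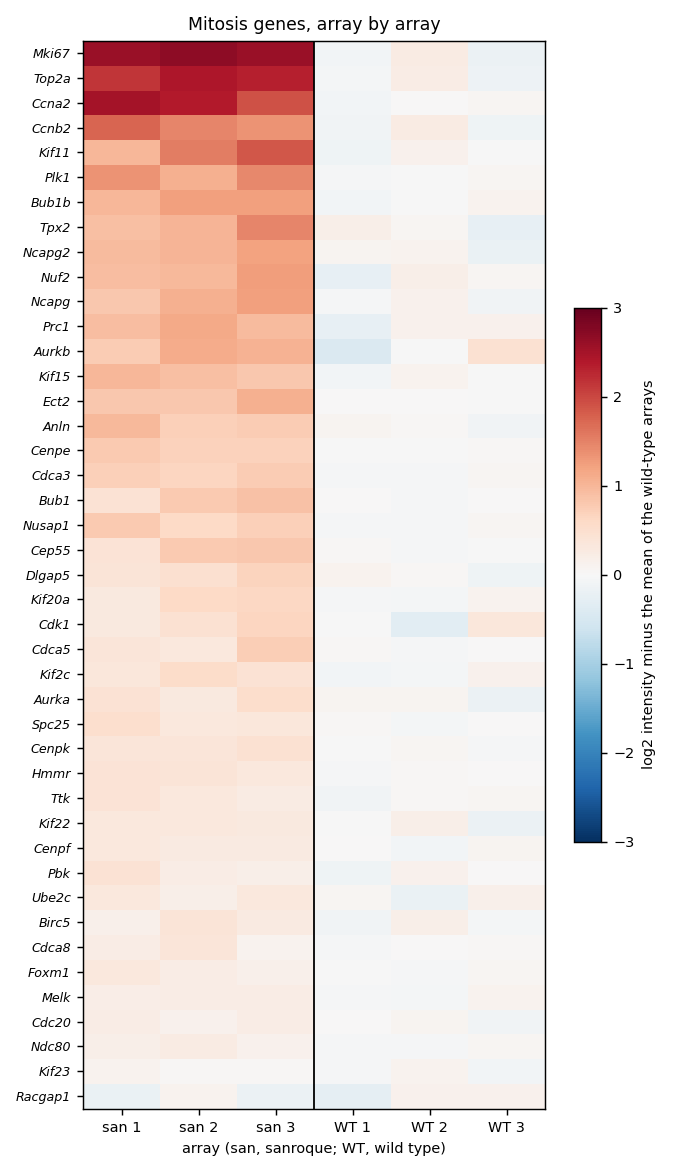
Log2 intensity of each mitosis gene on each array minus the mean of its wild-type arrays, ordered by log2 fold, with sanroque arrays at the left. The 3 sanroque columns are in shades of red for all genes but Racgap1, and Kif11 and Bub1 are paler in sanroque replicate 1.

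Other mitosis genes, from a list of 77 measured genes that shares none with the 43, rose in 20 cases and fell in 1, and 56 did not pass. That is 26.0% higher, against 3.26% of all genes and 62.8% of the 43, and the median log2 fold was 0.19. Knl1, the kinetochore scaffold of BUB1 and BUBR1, rose by a log2 fold of 1.19 ± 0.07 (adjusted p = 0.00161). Ccnf, cyclin F, rose by 0.77 ± 0.09 and Ncaph, a condensin I subunit, by 0.76 ± 0.12. Bub3, which carries BUB1 and BUBR1 to kinetochores, fell by 0.35 on the log2 scale (adjusted p = 0.0368). Of the 77, only 3 were higher when wild type replicate 1 was left out, 4 when sanroque replicate 2 was, 9 when wild type replicate 2 was and 10 when sanroque replicate 1 was, and median centring gave 8. TTTGAA was in the promoter window of 29 of the 61 of these genes that had one, or 47.5%.

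Among 23 genes of the DREAM and MuvB complexes, the E2F family and NF-Y, 4 rose, 2 fell and 17 did not pass. That is 17.4% higher and 8.70% lower, against 3.26% and 2.51% of all genes, with a median log2 fold of 0.13. The E2F genes E2f2 (0.95 ± 0.16, adjusted p = 0.0200) and E2f8 (0.82 ± 0.13, adjusted p = 0.0181) rose, as did E2f1 (0.35 ± 0.07) and Tfdp1, the dimer partner of E2F proteins (0.71 ± 0.12, adjusted p = 0.0209). Lin37, a MuvB subunit, and E2f5, of the E2F family, fell by 0.41 and 0.38 on the log2 scale, with adjusted p = 0.0432 and 0.0478. Mybl2, which encodes B-MYB, did not pass (0.21 ± 0.15, adjusted p = 0.595).

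Subunits of the anaphase-promoting complex, present in resting and dividing cells alike, gave no higher call. Of 14, 0 were higher (limma, also 0 at an unadjusted p below 0.05), which in so short a list is close to the 3.26% of all genes. Lower were 2, or 14.3%, where 2.51% of all genes were, and the median log2 fold was -0.16. Anapc16 fell by 0.76 (adjusted p = 0.0113) and Anapc15 by 0.43 (adjusted p = 0.0406) on the log2 scale.

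**Figure D4:**
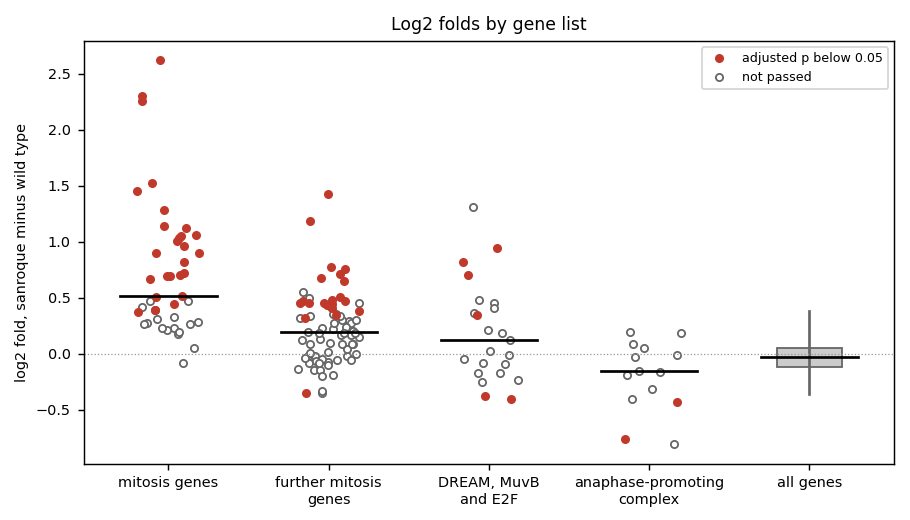
Log2 folds (sanroque minus wild type) of single genes in the mitosis genes, the further mitosis genes, the DREAM, MuvB, E2F and NF-Y genes and the anaphase-promoting complex, with medians of 0.52, 0.19, 0.13 and -0.16 as lines. The bar at the right gives all 19938 genes as median, quartiles and the range from the 5th to the 95th percentile.

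Markers of other cells moved with genotype on the same arrays. The sorted type was present throughout, with Cd8a between 12.990 and 13.023 in sanroque and between 13.003 and 13.054 in wild type. Of 5 CD8 T cell markers 0 rose and Cd3d, a chain of the T cell receptor complex, fell by 0.52 on the log2 scale (adjusted p = 0.0263). The summed linear intensity of that list was 28565 to 29643 in sanroque and 30726 to 32424 in wild type. Of 15 myeloid markers 14 rose, and their sum was 8915 to 13544 in sanroque and 953.3 to 1761 in wild type. Lyz2, a lysozyme of macrophages and neutrophils, rose by a log2 fold of 3.123 ± 0.364, while Cd14 read 4.53 to 4.63 in sanroque and 4.40 to 4.53 in wild type and did not pass. Of 12 B cell markers 7 rose, with sums of 7390 to 9160 in sanroque and 2038 to 4912 in wild type. Cd22, an inhibitory receptor of B cells, rose by 1.81 ± 0.24. Plasma cell markers rose in 5 of 7 genes, Jchain, Mzb1, Xbp1, Prdm1 and Irf4, while Sdc1 and Derl3 did not pass. The sums of that list were 1744 to 2372 in sanroque and 590.0 to 888.6 in wild type. CD4 T cell markers rose in 3 of 6 genes, Zbtb7b, Ctla4 and Ikzf2, while Cd4, Foxp3 and Cd40lg did not pass. Sums of the 6 were 723.2 to 1082 in sanroque and 393.0 to 439.1 in wild type. NK cell markers also rose in 3 of 6, which were Eomes, Fcgr3 and Klre1. The sums of that list were 847.0 to 1232 in sanroque and 454.8 to 527.1 in wild type. Eomes, with a mean of 9.48 in sanroque and 8.20 in wild type, makes up most of these sums. Klrb1c, Adamts14 and Ncr1 did not pass, and Ncr1 had a log2 fold of -0.12 ± 0.19. The cells from which these marker RNAs came were not tested.

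The remaining lists gave no call. Of 6 germinal centre B cell markers 0 passed, and their sums were 892.5 to 1104 in sanroque and 847.6 to 897.6 in wild type. Mybl1, which encodes A-MYB and also stands in the DREAM and MuvB list, read 5.11, 4.72 and 6.27 in sanroque and 3.94, 4.07 and 4.16 in wild type. Gcsam and Rgs13, markers of germinal centre B cells, had log2 folds of 1.03 ± 0.30 and 1.02 ± 0.33 and did not pass. All 3 genes had every sanroque array above every wild-type array and were highest in sanroque replicate 3, which was the highest sanroque array for 18 mitosis genes and the lowest for 12, Ccna2 and Ccnb2 among the 12. The median log2 fold of the list was 0.60, and Fas, Basp1 and S1pr2, its brightest members, make up most of its sum. The part of these cells in the result was not tested. Of 5 granulocyte precursor markers and 7 erythroid precursor markers 0 passed. Their sums were 166.0 to 264.4 in sanroque and 136.7 to 172.4 in wild type for the first list, and 945.6 to 1410 in sanroque and 654.3 to 929.1 in wild type for the second. Mpo of granulocyte precursors read 6.65, 6.16 and 5.52 in sanroque and 5.22, 5.05 and 5.67 in wild type. Car1, found in erythroid precursors, read 8.77, 8.54 and 7.32 in sanroque and 5.05, 7.24 and 5.76 in wild type. Markers of immature T cells, and of platelets and megakaryocytes, gave 0 calls among 6 and 4 genes. For immature T cells the sums were 312.7 to 389.8 in sanroque and 397.8 to 458.3 in wild type, and for platelets and megakaryocytes 132.1 to 136.8 in sanroque and 126.1 to 147.9 in wild type. No marker of any list is at 0, since every probe set has a positive reading.

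The levels of these lists also varied among arrays of 1 genotype. Wild type replicate 2 had a B cell list median of 7.79, against 6.69 and 6.55 in wild type replicates 1 and 3, and a myeloid median of 6.54, against 6.03 and 6.10. Its median over the mitosis genes was 4.96, against 4.87 and 4.98 in the same arrays, while its mean over them, 5.24 against 5.16 and 5.21, and its summed intensity, 2772 against 2441 and 2732, were the highest in wild type. Racgap1, the brightest of the 43, read 9.59, 9.99 and 9.99 in wild-type replicates 1 to 3 and is a large part of these sums. Mki67, Top2a, Ccnb2 and Kif11 were each highest in replicate 2 among the wild-type arrays. By count, replicate 3 was the highest wild-type array for 20 mitosis genes, replicate 2 for 15 and replicate 1 for 8. Sanroque replicate 1 had the highest B cell and myeloid medians of its group (8.97 and 8.93). It had the lowest mitosis median, 5.66, against 5.84 and 5.81 in sanroque replicates 2 and 3. It was the lowest sanroque array for 20 mitosis genes and the highest for 15, Ccna2 and Ccnb2 among the 15. Without wild type replicate 2 and sanroque replicate 1, 18 mitosis genes and 326 of all genes were higher. The median log2 fold of the mitosis genes was then 0.60. With the mean of the B cell and myeloid medians as a covariate, 0 mitosis genes and 0 genes in all passed. In that fit 13 mitosis genes and 6.57% of all genes had an unadjusted p below 0.05 by limma. Of the 43 log2 folds 37 stayed positive, and the median of the 43 was 0.605, against 0.08 for all genes. Single genes moved both ways with the covariate, as in Ccnb2 (0.52 with it, 1.53 without) and Kif20a (0.96 with it, 0.51 without). That score, centred over the arrays, was 0.86 to 1.27 in sanroque and -1.35 to -0.51 in wild type, so score and genotype can hardly be told apart in 6 arrays.

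**Figure D5:**
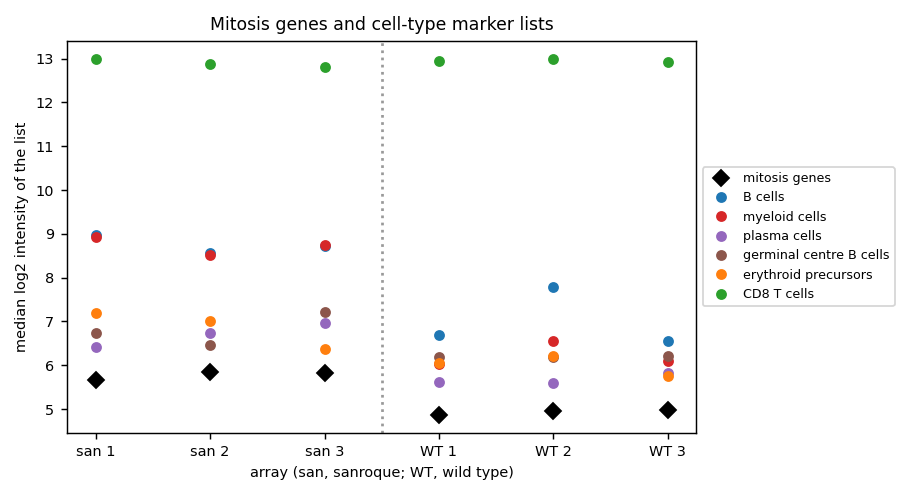
Median log2 intensity per array of the 43 mitosis genes and of 6 cell-type marker lists, with sanroque arrays at the left and wild-type arrays at the right. B cell and myeloid medians are raised in wild type replicate 2, where the mitosis median (4.96) lies between those of the other wild-type arrays (4.87 and 4.98) and the mitosis mean (5.24) is above theirs (5.16 and 5.21).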

How the data were processed

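Expression was measured on 6 Affymetrix arrays hybridised with biotinylated cRNA, per the labels' protocols. For 35399 probe sets the deposited value is a linear intensity, between 9.56 and 31996. The submitters' processing notes name Partek and give it no role. How background and arrays were corrected is not given in the sources used here. Array medians lay between 53.6 and 56.9, and the values were taken to log2 as they stood. Precision is limited by the number of arrays. Each p-value sets a genotype difference against the spread among samples of 1 genotype, which limma estimates with help from all genes. Exactly 1 symbol was listed for 21789 probe sets, updated through the GRCm38.p6 gene table.

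All genes entered 1 unfiltered model in limma 3.58.1 under R 4.3.3 (lmFit, eBayes), tested on simulated data. Errors beside log2 folds are standard errors, and SDs are over 3 arrays. The mitosis genes, roles, lists, alternatives and naming rule were chosen with earlier results of these data known. In each role the 2 genes with the largest absolute log2 fold were given in full, with every gene under 0.2. Up to 4 called genes were named per pathway list (1 further mitosis gene is not reported here), and genes of the highest level or smallest p in cell type lists. E2f1, E2f5, Mybl2, Bub3, Gcsam, Rgs13 and Cd14 lie outside this rule and were chosen after seeing their values. Plots were made in matplotlib 3.10.9 (Python 3.11.15).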

Additional observations from a re-analysis of the deposited data

How the results depend on the processing

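The count of 27 mitosis genes higher was 17 with the replicate number as a block and 0 with the score of other cells as a covariate. With that covariate 13 mitosis genes and 6.57% of all genes had an unadjusted p below 0.05 by limma. The count higher was 9 of the 14 left by a minimum mean of 6, which removes most of these dim genes. The number of all genes higher was then 584. That mean includes the sanroque arrays. Ccna2, Ccnb2, Plk1, Dlgap5, Mki67, Top2a and Ect2 had wild-type means below 6, and all were called. The share called and the median under this filter therefore depend partly on the folds themselves. The count higher was 16 to 24 when 1 array was left out. It stayed between 18 and 39 under the other alternatives. The number of all genes called higher also changed, from 650 in the main fit to 271 with the block. It was 326 without sanroque replicate 1 and wild type replicate 2 (18 mitosis genes) and 1998 with array weights (39 mitosis genes). The count of mitosis genes lower was 0 throughout. The median log2 fold was 0.71 under the minimum mean and 0.45 to 0.64 when 1 array was left out. Further mitosis genes higher numbered 5 of 36 under the minimum mean, 8 with median centring, 37 with array weights, 4 with the replicate block, 0 with the covariate (limma; 6 at an unadjusted p below 0.05), 5 without sanroque replicate 1 and wild type replicate 2, 7 with a fold minimum of 1.5, and 3 to 17 when 1 array was left out. The labels do not say that replicate numbers pair the arrays. Deviations of arrays with the same number correlated at -0.05, -0.16 and -0.36. With 3 arrays per genotype, centred on their own mean, these values cannot exclude a pairing. Signs turned for genes that had not passed. With the covariate the log2 folds were -0.28 for Pbk, -0.12 for Birc5, -0.28 for Kif22, -0.38 for Kif23 and -0.20 for Cdc20, and for Racgap1 they were 0.21 with array weights and 0.0374 with that pair of arrays left out. The cause of these changes was not tested.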
